A study of Mus musculus with 4 samples.

Results

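Open chromatin at the ends of noncoding RNA genes was examined in hearts of newborn mice that carried a miR-187 knock-in or not. The peaks of all 4 deposited ATAC-seq lists on chromosomes 1 to 19 were joined into regions wherever they shared 1 bp or more. A region belonged to the set when its midpoint lay within 1 kb of either end of an RNA gene that encodes no protein and is no pseudogene, and over 1 kb from the ends of all protein-coding genes. This rule found 1033 of 20624 regions. The rule used position only, and no measured value.

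The samples were 2 wild-type (WT) and 2 miR-187 libraries from P0 heart, profiled by ATAC-seq, a method that reads accessible DNA through the insertions of a transposase. Per the study's methods, the cells were endothelial cells taken from P0 hearts with CD31 magnetic beads, whereas the labels name heart tissue only. The miR-187 animals were homozygous for a CRISPR insertion at Rosa26 on the C57BL/6J background, which expresses exogenous mmu-miR-187 under the promoter and enhancer of Tek (Tie2), a gene active in endothelial cells. The WT animals carried no insertion. The construct thus adds miR-187 in cells where Tek is active, at a locus other than that of the endogenous Mir187 gene. Nothing states whether the 2 libraries of a group came from separate litters or pools, so p-values measure only the spread between these libraries.

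Noncoding RNA genes fall into classes with distinct machinery. Long noncoding RNAs (lncRNAs) and most miRNA precursors are transcribed by RNA polymerase II from promoters like those of protein-coding genes, and many snoRNAs are cut out of the introns of host genes. Transfer RNA (tRNA) genes are transcribed by RNA polymerase III from promoter elements inside the gene, so the accessible stretch at an active tRNA gene covers the gene itself. Spliceosomal snRNA genes have compact promoters of their own and exist in many near-identical copies. A miRNA recognises its targets mainly through its seed, bases 2 to 8 of the mature strand.

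The mature miRNAs at the named regions show which small RNAs these openings lie beside. The 31 regions at miRNA genes belonged to 30 genes, of which 28 had a mature sequence in the RefSeq table (GRCm38.p6). The 5 miRNA genes named here, chosen by the number of lists and by a list of textbook noncoding RNAs, gave 10 mature strands. Their seeds, in capitals, were 10 different sequences, so no pair shared a seed.
mmu-miR-7671-3p: aAGCGGGCaggcggagaaccac
mmu-miR-7671-5p: aGGCUCCGcucuggcuagcuucc
mmu-miR-7653-5p: uAAGGGGCggacagacagacgg
mmu-miR-7653-3p: cCCCUACUguuccaccccgccu
mmu-miR-7655-5p: cGGCCCACggagcuccuaaaga
mmu-miR-7655-3p: uUUAUGACgcuccgugggccug
mmu-miR-210-3p: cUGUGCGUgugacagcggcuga
mmu-miR-210-5p: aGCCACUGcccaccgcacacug
mmu-miR-23a-5p: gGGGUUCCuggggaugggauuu
mmu-miR-23a-3p: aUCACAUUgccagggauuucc

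The promoter windows below are RefSeq sequences from 250 bases before to 50 bases after a transcription start, written in the direction of the gene. Capitals mark matches, on either strand, to 9 motifs. Those of CpG-rich promoters were the core of ETS factors, CCGGAAG, the GC box of Sp and KLF factors, GGGCGG, the core of NRF1, TGCGCA, and that of YY1, AAGATGG. The general promoter elements were the box named CCAAT after its letters and the TATA box, searched for as TATAAA. The motifs of regulated factors were the cyclic AMP response element (CRE), TGACGTCA, the site of AP-1, written TGANTCA where any base may stand at N, and the motif of GATA factors, AGATAA. Matches of GGGCGG may overlap each other. The first set belongs to regions with a peak in all 4 lists whose joined extent overlaps part of the window. At Gm33628 and Malat1 the peak of each library reached into the window. At 2310040G24Rik only that of WT replicate 2 did, and at Gm45805 those of WT replicate 2 and miR-187 replicate 2. Gm33628 lies at chr12:108758142-108758441 on the minus strand, Malat1 at chr19:5802623-5802922 on the minus strand, 2310040G24Rik at chr6:86488178-86488477 on the minus strand and Gm45805 at chr8:126758304-126758603 on the minus strand. These 4 windows held few motif matches: a CCAAT box in 2310040G24Rik and a CCAAT and a TATA box in Gm45805, and none of the 9 in Gm33628 or Malat1.
Gm33628: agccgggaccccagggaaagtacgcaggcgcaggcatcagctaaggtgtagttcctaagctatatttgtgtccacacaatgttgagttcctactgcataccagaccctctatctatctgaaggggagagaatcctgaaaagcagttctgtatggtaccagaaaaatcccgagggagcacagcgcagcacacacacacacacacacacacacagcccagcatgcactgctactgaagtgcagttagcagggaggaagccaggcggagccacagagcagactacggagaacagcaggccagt
Malat1: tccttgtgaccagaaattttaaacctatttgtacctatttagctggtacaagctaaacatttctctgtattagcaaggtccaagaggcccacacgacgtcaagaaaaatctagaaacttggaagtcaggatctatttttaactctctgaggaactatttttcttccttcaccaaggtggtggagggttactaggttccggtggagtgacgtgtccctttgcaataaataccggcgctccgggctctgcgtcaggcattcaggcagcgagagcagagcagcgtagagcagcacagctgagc
2310040G24Rik: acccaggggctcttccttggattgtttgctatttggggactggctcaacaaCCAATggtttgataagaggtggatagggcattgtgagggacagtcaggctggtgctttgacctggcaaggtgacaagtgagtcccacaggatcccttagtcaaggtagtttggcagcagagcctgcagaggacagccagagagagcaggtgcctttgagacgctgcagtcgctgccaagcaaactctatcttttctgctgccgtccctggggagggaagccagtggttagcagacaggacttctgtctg
Gm45805: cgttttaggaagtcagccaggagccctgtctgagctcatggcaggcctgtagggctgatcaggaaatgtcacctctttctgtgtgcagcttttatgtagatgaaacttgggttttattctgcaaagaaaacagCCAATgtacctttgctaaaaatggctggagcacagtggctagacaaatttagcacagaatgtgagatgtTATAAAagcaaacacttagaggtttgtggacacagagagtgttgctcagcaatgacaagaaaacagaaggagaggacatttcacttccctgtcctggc

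The window of Gm40093, at chr3:93597455-93597754 on the minus strand, is shown because its region ranked first among those found in the WT lists alone, in both of them. It held none of the 9 motifs.
Gm40093: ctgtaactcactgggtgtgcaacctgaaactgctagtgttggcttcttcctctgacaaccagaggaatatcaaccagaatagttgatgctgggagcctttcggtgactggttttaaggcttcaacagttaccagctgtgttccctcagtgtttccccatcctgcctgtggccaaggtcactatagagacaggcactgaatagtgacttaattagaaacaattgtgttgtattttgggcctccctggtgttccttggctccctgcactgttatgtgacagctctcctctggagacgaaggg

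The last set, added after the values were seen, holds lncRNA genes of textbook interest with a peak in 3 lists. Dnm3os lies at chr1:162217373-162217672 on the plus strand, Snhg8 at chr3:123508287-123508586 on the minus strand, Snhg5 at chr9:88522848-88523147 on the minus strand and Oip5os1 at chr2:119594046-119594345 on the plus strand. Snhg8 and Snhg5, hosts of snoRNAs, each carried a CCAAT box and a TATA box with 4 and 2 matches to the Sp/KLF box. Their windows had 30 and 36 CpG dinucleotides, with observed-to-expected CpG ratios of 1.04 and 1.26. Oip5os1 had 2 CCAAT boxes, 2 Sp/KLF boxes and a ratio of 0.801, and Dnm3os had no match and a ratio of 0.298.
Dnm3os: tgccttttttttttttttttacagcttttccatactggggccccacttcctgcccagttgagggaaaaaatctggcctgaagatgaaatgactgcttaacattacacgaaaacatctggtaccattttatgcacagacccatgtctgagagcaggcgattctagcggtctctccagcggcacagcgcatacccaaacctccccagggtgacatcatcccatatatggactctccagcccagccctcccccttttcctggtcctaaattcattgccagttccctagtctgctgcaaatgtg
Snhg8: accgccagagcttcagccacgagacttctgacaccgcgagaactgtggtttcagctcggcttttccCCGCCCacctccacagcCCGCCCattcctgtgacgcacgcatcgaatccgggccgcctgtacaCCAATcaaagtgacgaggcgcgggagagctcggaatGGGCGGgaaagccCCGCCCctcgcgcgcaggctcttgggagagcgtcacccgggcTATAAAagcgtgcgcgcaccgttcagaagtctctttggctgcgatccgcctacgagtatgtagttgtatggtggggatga
Snhg5: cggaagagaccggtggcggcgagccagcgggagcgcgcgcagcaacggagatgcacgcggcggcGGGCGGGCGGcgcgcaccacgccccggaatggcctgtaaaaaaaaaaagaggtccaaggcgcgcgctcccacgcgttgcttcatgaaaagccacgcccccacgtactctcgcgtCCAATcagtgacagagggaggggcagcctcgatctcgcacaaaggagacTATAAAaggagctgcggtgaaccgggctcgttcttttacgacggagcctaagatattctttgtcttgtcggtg
Oip5os1: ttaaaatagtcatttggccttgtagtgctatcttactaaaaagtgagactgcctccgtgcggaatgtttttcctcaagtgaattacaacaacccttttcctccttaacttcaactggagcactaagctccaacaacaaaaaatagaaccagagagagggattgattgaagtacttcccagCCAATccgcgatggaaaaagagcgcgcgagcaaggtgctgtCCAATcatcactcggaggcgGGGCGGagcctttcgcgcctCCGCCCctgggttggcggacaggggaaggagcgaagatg

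The 4 lists differed greatly in length, which bears on all counts given here. They held 9307 and 12155 autosomal peaks for the WT replicates 1 and 2, and 7407 and 1461 for the miR-187 replicates 1 and 2. The lowest background that could be solved from the lists' fold enrichments and p-values, under the usual peak-caller model with reads extended to 200 bp, was 1750 and 5225 reads per Mb in WT and 2015 and 1030 in miR-187. The shortest list thus had the thinnest background and the longest the densest. How far depth set the lengths was not tested. Of 18 endothelial marker genes, 3 (Cdh5, Kdr and Robo4) and 4 (Cdh5, Tek, Tie1 and Fli1) had a peak at an end in the WT lists. In the miR-187 lists 2 (Tek and Kdr) and 1 (Cdh5) did. Of 12 cardiomyocyte genes, only Myl2 had one, in WT replicate 1. Most defining markers of either cell type thus had no peak at an end in any list. The share of all protein-coding genes with such a peak was not counted, so these numbers cannot be set against a background.

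Of the 1033 regions at noncoding gene ends, 455 and 642 carried a peak in the WT libraries 1 and 2, and 359 and 60 did so in the respective miR-187 libraries. In the full lists both miR-187 counts were below both WT counts. The means were 548 ± 132 (SD, n = 2) in WT and 210 ± 211 (SD, n = 2) in miR-187, a difference of 339 regions with p = 0.333 in a 2-sided exact permutation test. This is the smallest p that 2 against 2 libraries allow. With −log10 q of at least 5 the counts were 103 and 284 in WT and 127 and 5 in miR-187. The groups then overlapped, and the difference of their means was 128 regions. Without miR-187 replicate 2 the full-list difference was 190 regions. When the same number of peaks was taken from each list, the difference was -4.5 regions. The lower counts thus stood in the shorter lists, and what made those lists shorter was not tested. In bulk material, fewer cells with an open region and less opening per cell cannot be told apart.

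As a share of all regions with a peak in the same list, these regions made up 4.91% (95% Wilson interval 4.49% to 5.37%) in WT replicate 1 and 5.31% (4.92% to 5.72%) in WT replicate 2. The shares were 4.88% (4.41% to 5.4%) in miR-187 replicate 1 and 4.11% (3.21% to 5.25%) in miR-187 replicate 2. The intervals cover counting error only. The group means, 5.11% and 4.5%, differed by 0.613 percentage points (2-sided exact permutation p = 0.333, n = 2 and 2), and the sign turned to -0.31 points in lists of equal length. Without miR-187 replicate 2 the difference was 0.227 points, and without miR-187 replicate 1 it was 0.989. The groups overlapped with −log10 q of at least 5 (5.23% and 5.06% in WT, 5.55% and 4.1% in miR-187). They also overlapped with a 500 bp limit (3.37% and 3.79%, 3.45% and 3.01%). Noncoding gene ends therefore took about the same slice of a list that varied manyfold in length.

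In the full lists, regions at protein-coding gene ends recurred more often. Every region of either kind was drawn from these same 4 lists. The percentages thus measure how often a region called in some list had a peak in a given one. They do not measure how often gene ends were open, and neither do the tests on the gap between them. WT replicate 1 had a peak in 44.0% of the noncoding and 49.2% of the 8054 protein-coding end regions, and WT replicate 2 in 62.1% and 73.4%. The corresponding values were 34.8% and 45.5% in miR-187 replicate 1 and 5.81% and 6.94% in miR-187 replicate 2. The gap was below 0 in all 4 lists, at -5.11, -11.3, -10.8 and -1.13 percentage points. The sign of single libraries depended on the settings: it was above 0 in both miR-187 lists when the lists were trimmed to the same length (3.45 and 5.17, against -2.44 and -11.3 in WT) and with −log10 q of at least 5 (0.445 and 0.236, against -0.26 and -6.65 in WT). Under both settings the groups did not overlap (2-sided exact permutation p = 0.333, the smallest possible). With −log10 q of at least 5, however, the miR-187 replicate 2 value rests on 5 of 389 noncoding end regions, and WT replicate 1 lay close to it. The gap was also above 0 in WT replicate 1 and miR-187 replicate 2 when a peak had to cover 50% of its region (0.428 and 0.564). In the full lists the gap did not separate the groups (means -8.18 and -5.95, 2-sided exact permutation p = 0.667, n = 2 and 2), and its group difference changed sign without WT replicate 2 or without miR-187 replicate 2 (4.25 and 2.79 points).

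By class of the nearest gene, 893 regions lay at an lncRNA, 64 at a tRNA, 31 at a miRNA, 26 at an snRNA and 11 at a snoRNA gene. The other 8 were 6 transcripts of no specific class, the Y RNA gene Rny1 and the small cytoplasmic RNA gene Rn7s2. They belonged to 959 different genes, and 864 regions (83.6%) lay at genes with a serial symbol (Gm, LOC or Rik). Whether a function has been described for these genes was not examined. Midpoints lay inside a protein-coding gene in 368 regions (35.6%), and the median distance to a protein-coding gene end was 14945 bp. Genes of other classes than lncRNA held 13.4% and 15.6% of the regions found in WT and 15.6% and 10.0% in miR-187. In the full lists these shares overlapped between the groups (means 14.5% and 12.8%, 2-sided exact permutation p = 1, n = 2 and 2). In lists trimmed to the same length they did not, with 20.9% and 19.4% in WT and 15% and 10.3% in miR-187 (2-sided exact permutation p = 0.333, the smallest possible). These are shares of only 67 and 62 regions in WT and 80 and 58 in miR-187, so each rests on few regions.

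Within the 1 kb that the rule allowed, midpoints lay close to the gene end. Of all 1033, 465 (45%) lay within 250 bp, against 147 (14.2%) at 750 to 1000 bp. An even spread would put 25% in each of the 4 bins. That value is for scale only, since the rule used the same distance and the nearest of several ends was taken. The spread was not tested. At lncRNA genes the nearest bin held 42.6% (Wilson interval 39.3% to 45.8%). At tRNA genes it held 75% (63.2% to 84%), and 34 of 64 tRNA regions (53.1%) spanned the entire gene, whose median length was 72 bp. Regions spanning an entire lncRNA gene numbered 1. Just inside the limit, 49 regions had their midpoint in the last 100 bp, and 70 further regions lay in the first 100 bp beyond it.

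**Figure D1:**
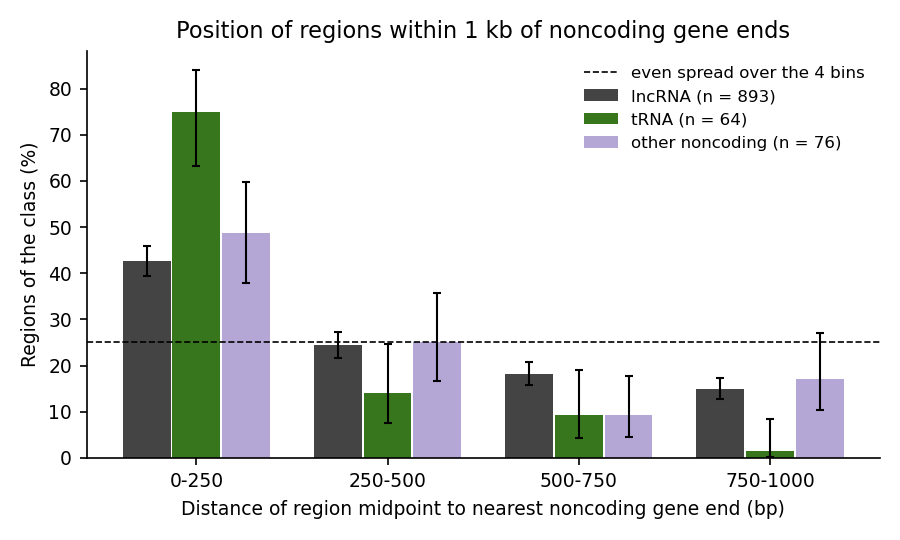
Percentage of regions (y axis) in each 250-bp bin of distance between region midpoint and nearest noncoding gene end (x axis), for lncRNA, tRNA and all other noncoding genes, with 95% Wilson intervals. The dashed line is an even spread, given for scale only. The first bin holds 42.6% of lncRNA regions and 75% of tRNA regions, and the last holds 14.9% and 1.56%.

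For lncRNA genes with a strand in the RefSeq promoter table, the end that was open was mostly the start. Of 692 such regions, 529 (76.4%) were nearer to the 5′ end, and 320 (46.2%) overlapped an annotated promoter window. The 5′ share was 81.7% of 306 regions in WT replicate 1, 78.5% of 428 in WT replicate 2 and 79% of 248 in miR-187 replicate 1. In miR-187 replicate 2 it was 62.5% of 40 regions, the lowest of the 4 libraries. The 3′ ends thus made up the minority of the openings in the 3 longer lists.

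Transfer RNA genes stood out among the classes. Genes with at least 1 end over 1 kb from all protein-coding gene ends were taken as the base. Outside this base, 8 of 503 noncoding genes also had a region of the set, 2 of them tRNA genes. In WT replicate 1, 47 of 345 such tRNA genes (13.6%, Wilson interval 10.4% to 17.6%) had a peak at an end, against 406 of 12190 lncRNA genes (3.33%, 3.03% to 3.66%). In WT replicate 2 the shares were 22.6% (18.5% to 27.3%) and 4.52% (4.17% to 4.9%), and in miR-187 replicate 1 they were 13.6% (10.4% to 17.6%) and 2.63% (2.36% to 2.93%). The tRNA share was thus 4.09, 5 and 5.17 times the lncRNA share in these libraries. Clustered tRNA genes that share a region raise these ratios. Regions with a tRNA gene nearest numbered 24, 46 and 29, and those with an lncRNA gene nearest 394, 542 and 303. Counted by region, the ratios would be lower. In miR-187 replicate 2 the tRNA share of genes was 0.87% (3 genes, 0.296% to 2.53%) against 0.468%, a ratio of 1.86 with overlapping intervals. The difference was above 0 in 4 of 4 libraries, with a mean of 9.93 percentage points (2-sided exact sign-flip permutation p = 0.125, the smallest that 4 libraries allow).

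**Figure D2:**
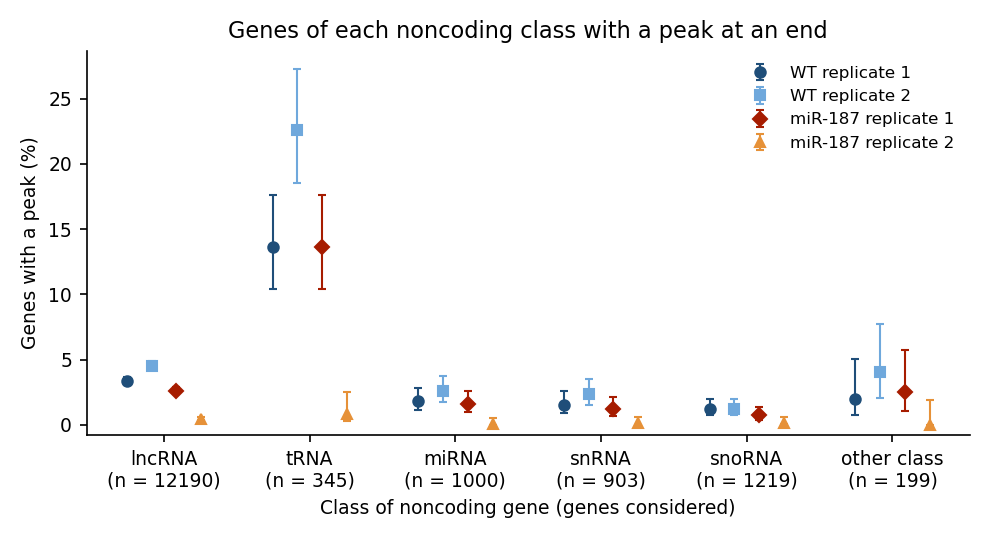
Percentage of genes of each noncoding class with a peak at an end (y axis) in each of the 4 libraries, with 95% Wilson intervals; the x axis gives the class and the number of genes considered. The tRNA genes reach 13.6% to 22.6% in 3 libraries, and all other classes stay at or below 4.52%.

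Counted per gene, the other small RNA genes had a peak no more often than lncRNA genes. The stretch searched differed by class, since the 2 ends of a typical lncRNA gene (median length 8528 bp) lie far apart. Those of miRNA, snRNA and snoRNA genes (81, 107 and 130 bp) lie close together and share most of their stretch. Shares per length searched were not computed, so the order of the classes may differ on that scale. In WT replicate 2, the list with most peaks, 2.6% of 1000 miRNA genes, 2.33% of 903 snRNA genes and 1.23% of 1219 snoRNA genes had a peak at an end. In miR-187 replicate 1 these shares were 1.6%, 1.22% and 0.738%. In miR-187 replicate 2, 1 miRNA gene, 1 snRNA gene and 2 snoRNA genes of this base had one, as did 1 snRNA gene outside it, Rnu3a. These counts include small RNA genes that share a region with a nearer gene of another class. Reads from near-identical copies of snRNA and tRNA genes can be placed at a sister copy by an aligner, so a peak at such a gene is uncertain as to the copy.

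Every amino acid had at least 1 tRNA gene with a peak in some list. Of 345 genes considered, 90 (26.1%) had a peak in any list. Leucine tRNA genes reached 10 of 22, proline 8 of 14 and tyrosine 4 of 9. Cysteine tRNA genes, the most numerous at 54, had 2 (3.7%), and serine tRNA genes had 1 of 17. All tRNA genes other than cysteine together reached 88 of 291 (30.2%). The genes are not independent, since 26 of the 64 tRNA regions had 2 or more tRNA genes within 1 kb and up to 4 shared a region. The median percentile rank of tRNA peaks (100 being the strongest peak of a list by −log10 q) was 75.3 in WT replicate 1, 60.1 in WT replicate 2 and 71.6 in miR-187 replicate 1. The medians of lncRNA peaks in the same lists were lower, at 49.7, 46.1 and 54.1. In miR-187 replicate 2 the order was the other way, with 13.8 over 3 tRNA regions and 60.4 over 54 lncRNA regions.

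At lncRNA promoters, peaks went with CpG content. Among promoter windows whose start lay over 1 kb from protein-coding gene ends, 524 of 9854 were CpG-rich (GC of at least 50% and an observed-to-expected CpG ratio of at least 0.6). In WT replicate 1, 13.5% of CpG-rich windows (71; Wilson interval 10.9% to 16.7%) and 0.9% of the other 9330 (84; 0.728% to 1.11%) overlapped a peak. In WT replicate 2 the shares were 23.1% (19.7% to 26.9%) and 1.3% (1.09% to 1.55%). In miR-187 replicate 1 they were 12% (9.51% to 15.1%) and 0.793% (0.632% to 0.994%), and in miR-187 replicate 2 they were 1.34% (0.649% to 2.73%) and 0.107% (0.0582% to 0.197%). The CpG-rich share was 15, 17.8, 15.2 and 12.5 times the other in the order given, and the intervals did not overlap in any library. Windows of 1 gene can overlap each other, so they are not fully independent.

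**Figure D3:**
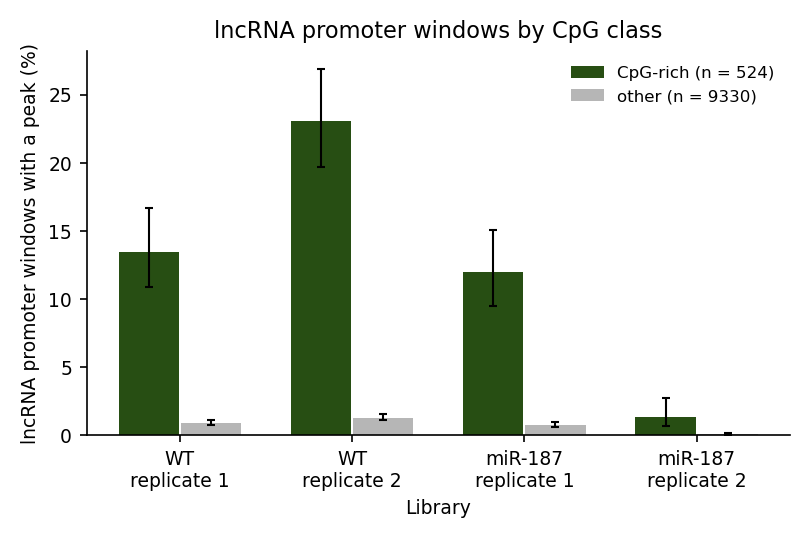
Percentage of lncRNA promoter windows that overlap a peak (y axis) in each library (x axis), for CpG-rich and other windows, with 95% Wilson intervals. The CpG-rich bars run from 1.34% in miR-187 replicate 2 to 23.1% in WT replicate 2, and the other bars stay at or below 1.3%.

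Windows that were not CpG-rich were nonetheless the more numerous among those with a peak in any list. Within WT replicate 2 the 2 kinds were equal, at 121 each. Of 356 windows with a peak in any list, 152 (42.7%) were CpG-rich, against 372 of 9498 (3.92%) without one. The median GC content was 56.5% with a peak and 47.3% without, and the median CpG ratio was 0.549 and 0.216. Snhg8, Snhg5 and Oip5os1, printed above, belong to the CpG-rich windows. Malat1, with a ratio of 0.604 and 47% GC, fell short on GC alone, and Gm45805 and Gm40093 had ratios of 0.0684 and 0.113.

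Motifs that hold a CpG or a run of G were found in more of the windows with a peak. The Sp/KLF box, itself a GC box, was in 43.8% of the windows with a peak and 9.53% of those without, against 36% of all 31396 promoter windows in the table, coding genes included. Among CpG-rich windows alone it was in 73% with a peak and 50.5% without. The ETS core was in 10.4% with a peak, 2.61% without and 9% of all promoters, and among CpG-rich windows in 13.8% and 6.72%. The NRF1 core was in 8.71% and 2.97%, but in 12.5% and 15.1% of CpG-rich windows, so that its order turned (7.76% of all promoters). The CRE was in 3.65% with a peak and 0.653% without (1.83% of all promoters), and in 3.95% and 3.49% of CpG-rich windows. The CCAAT box was in 36% and 36.2%, against 37.3% of all promoters. The TATA box (9.55% and 16.9%; all promoters 13.6%) and the GATA motif (7.3% and 15.5%; 11.2%) were in fewer windows with a peak. Among CpG-rich windows the order of the TATA box turned, with 9.21% and 5.65%, and that of GATA did not (1.97% and 5.11%). The AP-1 motif (8.71% and 10%; 7.84%) and the YY1 core (5.9% and 6.63%; 6.38%) had similar shares with and without a peak. Among CpG-rich windows these were 3.95% and 3.49% for AP-1 and 6.58% and 11% for YY1, and 34.9% and 27.4% for the CCAAT box. A match is a run of letters and not a measured binding site.

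Peak strength was compared by percentile rank within each list. Peaks at noncoding gene ends had median ranks of 51.6 and 49.0 in WT and 56.7 and 60.4 in miR-187, so the groups did not overlap. The means of 50.3 ± 1.85 and 58.5 ± 2.66 (SD, n = 2 each) differed by -8.23 (2-sided exact permutation p = 0.333, the smallest possible). Peaks at protein-coding gene ends had medians of 58.8 and 59.1 in WT and 55.5 and 54.5 in miR-187, and regions at neither kind of end 43.5, 42.0, 44.8 and 44.1. In the full lists, noncoding gene ends thus ranked between the other kinds in WT and first in miR-187. This order did not hold throughout: relative to protein-coding ends, miR-187 replicate 1 turned to -7.31 and WT replicate 2 to 1.63 in lists of equal length, and miR-187 replicate 1 to -2.67 with −log10 q of at least 5. When lists were trimmed to the same length, the difference between the groups shrank to -2.44 and the groups overlapped. With −log10 q of at least 5 it widened to -23.7, with medians of 38.4 and 45.6 in WT and 51 and 80.5 in miR-187. The last of these medians rests on 5 regions.

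**Figure D4:**
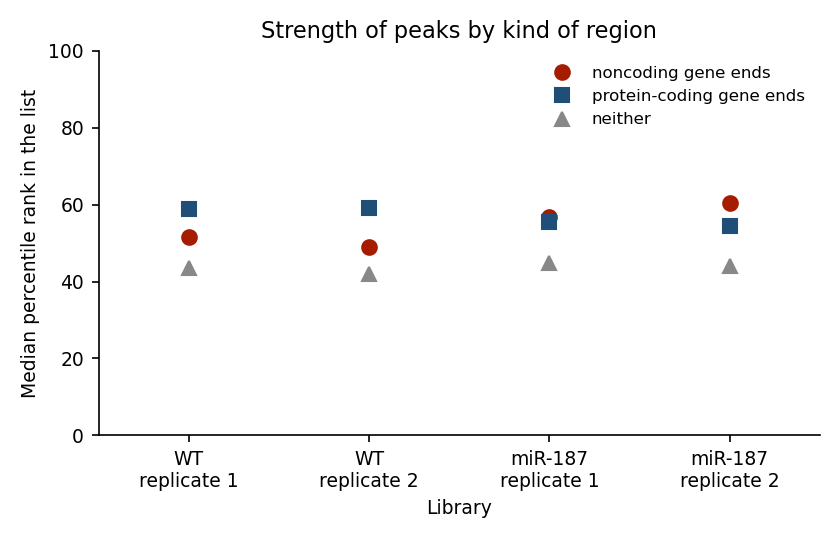
Median percentile rank by −log10 q within the list (y axis, 100 is the strongest) of regions at noncoding gene ends, at protein-coding gene ends and at neither, in each library (x axis). Noncoding gene ends lie at 51.6 and 49.0 in the WT lists and at 56.7 and 60.4 in the miR-187 lists.

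In absolute terms the peaks were shallow. The median fold enrichment at noncoding gene ends was 5.18 and 4.89 in WT and 5.61 and 5.59 in miR-187. The median summit height, solved from fold and p-value, was 8 and 14 reads in WT and 10 and 7 in miR-187. Peaks were 284, 316, 293 and 233 bp wide at the median, in the same order. A summit of 4 reads was enough for a peak in the lists with the thinnest background, whereas at least 7 were needed in WT replicate 2, so a region missing from a list may be open below its detection limit.

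Most regions were found in a single library. Of the 1033, 695 (67.3%) had a peak in 1 list, against 67.5% of all regions, 209 in 2, 113 in 3 and 16 in 4 lists. The 16 in all 4 lists (1.55%) compare with 1.43% of all regions and 2.59% of protein-coding end regions. A further 98 (9.49%, against 9.8% of all regions) were found in all but miR-187 replicate 2. The noncoding gene ends thus recurred at the rate of regions in general.

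The region with the highest lowest rank over the 4 lists lay at AY036118, at chr17:39847544-39847969. Its −log10 q was 15.8 and 32.8 in WT and 25 and 10.5 in miR-187, within the top percentile of each list. Its fold enrichment was low, at 2.3 and 2.15 in WT and 2.57 and 2.64 in miR-187, over summits of 171, 367, 203 and 97 reads. A second region at chr17:39848139-39848720 had folds of 2.01, 1.97, 1.92 and 2.06. Both overlap Rn18s-rs5, an 18S ribosomal RNA-related pseudogene at chr17:39846354-39848202. Ribosomal RNA genes are repeated many times in the genome, and reads from them can align here. Their part in these peaks was not tested.

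Malat1, an abundant nuclear lncRNA, was open over its 5′ end at chr19:5801897-5802749. The fold enrichment was 5.49 and 8.29 in WT and 4.55 and 9.41 in miR-187, with −log10 q of 6.07, 29.8, 3.58 and 11. The groups overlapped, since replicate 2 was the higher library in both. A second region at chr19:5794684-5795228, 734.0 bp from the 3′ end, had a peak in WT replicate 2 alone (fold 3.74).

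Gm33628 had the highest fold of the 16, at chr12:108757953-108758349. Its values were 8.96 and 8.01 in WT and 10.4 and 5.8 in miR-187. The start of the gene lies within 40.0 bp of the midpoint, and the nearest protein-coding gene is Yy1, a zinc finger factor, 34794.0 bp away. Gm39606, at chr11:20455032-20455414, had the widest span between its lowest and highest fold among the 16, with 4.49 and 5.99 in WT and 9.8 and 6.58 in miR-187.

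Gm41597, at chr17:50237370-50237675, had folds of 6.17 and 7.14 in WT and 7.32 and 8.09 in miR-187. LOC115490435, at chr6:128842879-128843388, had 5.0 and 4.12 in WT and 6.6 and 8.0 in miR-187. In both of them the groups did not overlap, with miR-187 higher. Gm32518, at chr3:87960680-87961208 and 7572.0 bp from the retinoic acid-binding protein gene Crabp2, had 6.38 and 7.52 in WT and 5.11 and 5.3 in miR-187, with WT higher. The widest of these regions were those of 1700012D14Rik and 2310040G24Rik, at 1019 bp each, with folds between 4.69 and 7.84. The others named, Gm45805, Gm34222 and Gm41307, ranged from 3.85 to 6.08.

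Across the 16 regions, both miR-187 folds exceeded both WT folds in 6 (the first AY036118 region, Gm41597, LOC115490435, Gm39606, Gm45805 and Mir7671). This arrangement occurred in 16.3% of all 295 regions found in all 4 lists. The reverse arrangement held in 2, Gm32518 and Rnu3a, against 14.9% of all such regions. At Gm45805 and Mir7671 no base lay in all 4 peaks, so their folds are not of 1 site, whereas the 4 peaks shared bases in the other 4 of the 6. No single region was tested, since the smallest p of the 2-sided exact permutation test used here is 0.333.

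**Figure D5:**
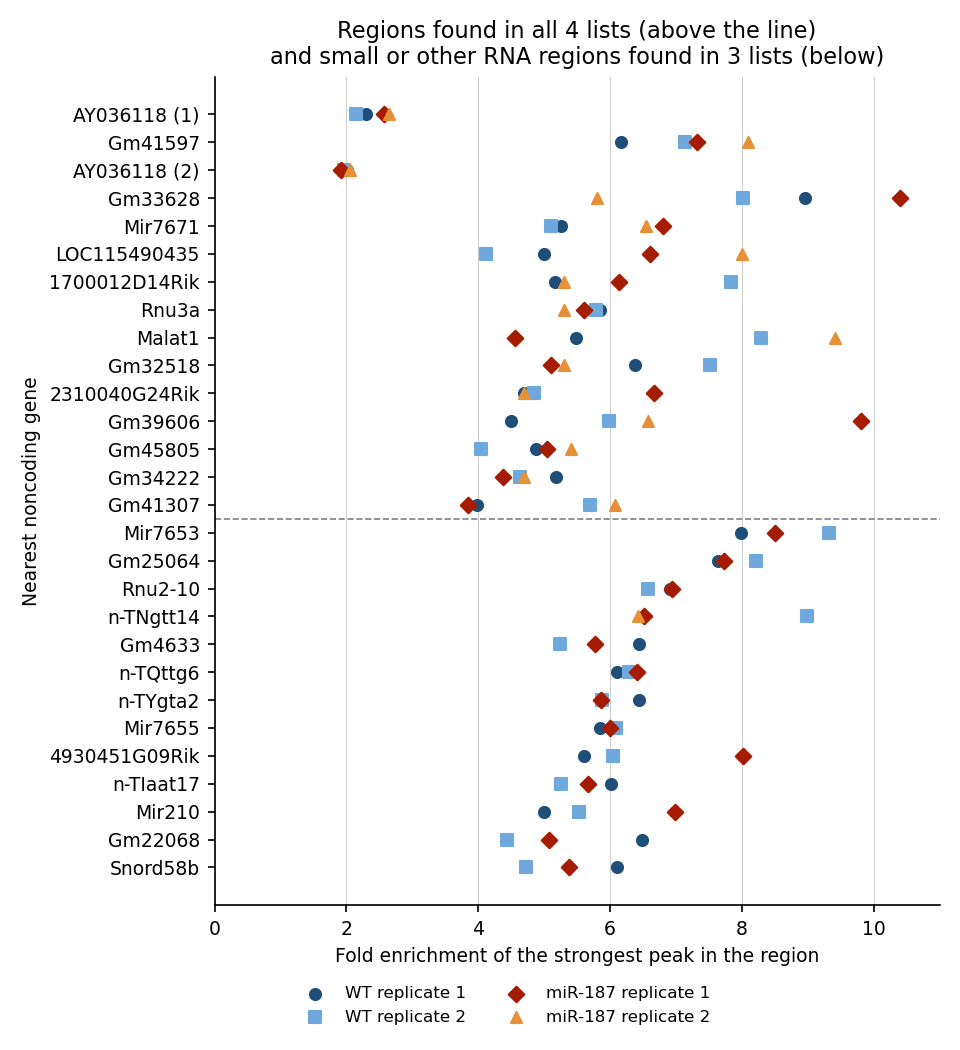
Fold enrichment of the strongest peak (x axis) at each named region (y axis, nearest noncoding gene) in each library, for 15 regions found in all 4 lists and, below the dashed line, regions of other classes than lncRNA found in 3 lists; a missing symbol means no peak. The AY036118 regions lie at 1.92 to 2.64, and Gm33628 reaches 10.4 in miR-187 replicate 1.

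Among miRNA genes, Mir7671 was found in all 4 lists, at chr11:53763444-53764243, a joined region that covers the gene, although the peaks of WT replicate 1 and miR-187 replicate 1 lay beside it. Its fold was 5.26 and 5.11 in WT and 6.8 and 6.55 in miR-187, and the nearest protein-coding gene end, 6170.5 bp away, is that of Irf1, an interferon-regulated transcription factor. Mir7653, in Tlcd1 at chr11:78177827-78178518, was the strongest miRNA region in 3 lists, with 7.98 and 9.32 in WT and 8.5 in miR-187 replicate 1. Mir210, a miRNA known to be induced by low oxygen, was open 469.5 bp from a gene end, at chr7:141221615-141222310. Its fold was 5.0 and 5.53 in WT and 6.99 in miR-187 replicate 1. Mir7655, in Mllt10 at chr2:18056768-18057393, had 5.85, 6.09 and 6.0 in the same libraries. None of these 3 had a peak in miR-187 replicate 2.

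Among snRNA genes, Rnu3a was in all 4 lists. This copy of the U3 RNA, which acts in ribosomal RNA processing, lay at chr10:40258471-40259058 with folds of 5.85 and 5.78 in WT and 5.61 and 5.3 in miR-187. Its midpoint was 1052.5 bp from the end of Gtf3c6, just outside the 1 kb limit, as for 13 regions within 100 bp of that limit. Rnu2-10, a U2 snRNA gene of the spliceosome, had folds of 6.91, 6.57 and 6.94 in the 3 longer lists, values that differ little between libraries. The snRNA gene Gm25064 reached 7.63, 8.21 and 7.73, and Gm22068, inside Tex14, 6.49, 4.43 and 5.07. The snoRNA gene Snord58b, in the ribosomal protein gene Rpl17, had 6.11, 4.72 and 5.38.

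Of the tRNA genes, the asparagine gene n-TNgtt14 at chr5:149228970-149229427 was the only named region of a class other than lncRNA found in miR-187 replicate 2 but not in WT replicate 1. Its fold was 8.98 in WT replicate 2 and 6.52 and 6.43 in miR-187. The genes n-TQttg6 (glutamine), n-TYgta2 (tyrosine) and n-TIaat17 (isoleucine) had peaks in both WT lists and miR-187 replicate 1, with folds between 5.26 and 6.44. The transcripts of no specific class Gm4633, in Cd47, and 4930451G09Rik, in Anks3, had folds of 5.24 to 6.44 and 5.61 to 8.02 in those lists.

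The regions seen in each WT list but in no miR-187 list numbered 91 (8.81%), against 8.6% of all regions and 12.6% of protein-coding end regions. The share is that of regions in general. Ranked first was Gm40093, at chr3:93597193-93597604 and 32753.5 bp from the end of S100a10, with folds of 7.07 and 8.45. It was followed by the tRNA genes n-THgtg3 (histidine; 6.15 and 6.34) and n-TIaat6 (isoleucine; 6.99 and 5.31), and by Gm46569 (6.58 and 7.25) and Gm30527 (6.9 and 6.05). By class, 12 of 64 tRNA regions (18.8%) and 70 of 893 lncRNA regions (7.84%) had this pattern, a split chosen after the counts were seen. Without miR-187 replicate 1 the number was 188 of 908 regions, with absence from 1 list required in place of 2. The share of all regions was not counted in that setting.

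The opposite pattern, both miR-187 lists and no WT list, held for 1 region (0.0968%), against 0.155% of all regions. It lay at Gm52331, inside Haus1 on chromosome 18, with folds of 6.25 and 6.45. When lists were trimmed to the same length, the 2 patterns held for 7 and 6 of 202 regions of the set. The 2 counts were thus close when list length was equal. Their shares among all 4536 regions of the trimmed lists were not counted, so nothing particular to noncoding gene ends can be read from them.

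A list of 65 symbols of noncoding genes of textbook interest was searched, of which 61 were in the gene table on the autosomes. Cyrano, not found by that symbol, is another name of Oip5os1, which was found. Of the 61, 19 had a region in the set, 9 and 15 of them with a peak in the WT lists and 12 and 2 in the miR-187 lists. Among all 16359 autosomal noncoding genes, 3.11% and 4.32% had such a peak in the WT lists and 2.52% and 0.397% in the miR-187 lists. That count includes genes that share a region with a nearer gene. The searched genes were picked by hand, and their difference from all genes was not tested. Only Malat1 had a single region with a peak in all 4 lists, whereas the peaks of Peg13 reached all 4 over 2 regions. The list of miR-187 replicate 2 was also the shortest, and how far its length set this low number was not tested. No region lay at Mir187. At Gt(ROSA)26Sor, the insertion site, 1 peak was found within 1 kb in miR-187 replicate 1 and none in the other lists, and it did not give a region of the set. The ends of this gene lie 850 and 18 bp from protein-coding gene ends, and the rule leaves out regions within 1 kb of those. In total, 1074 regions at both kinds of end were left out in this way. A searched gene without a region in the set may therefore still have a peak, which was not examined gene by gene.

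Snhg8, Snhg5 and Oip5os1 had peaks in both WT lists and miR-187 replicate 1. Snhg8 had folds of 6.25, 6.7 and 5.88, and Snhg5 had 5.49, 5.56 and 7.41. Oip5os1, also known as a regulator of microRNA decay, had 4.27, 4.76 and 6.55. The miR-187 value was the highest of the 3 for Snhg5 and Oip5os1 and the lowest for Snhg8. Of the other snoRNA hosts of the searched list, Snhg1, Snhg14, Gas5 and Zfas1 had no region in the set, and 4 were found in fewer lists: Snhg3 in WT replicate 2 and miR-187 replicate 1 (4.93 and 6.11), Snhg15 and Snhg16 in WT replicate 2 alone (6.25 and 3.93), and Snhg12 in miR-187 replicate 1 alone (6.47).

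Dnm3os, the antisense host of miR-199a and miR-214, had folds of 6.11 and 5.71 in WT and 8.05 in miR-187 replicate 1, at chr1:162217440-162217910. Neat1, the scaffold of paraspeckles, had 3.39 in WT replicate 2 and 4.1 in miR-187 replicate 1. Fendrr, required for heart and body wall development, had a peak in WT replicate 2 alone with a fold of 4.27 over a summit of 9 reads. Mir22hg had 4.55 in the same list, and Mir23a, first of a cluster with Mir27a and Mir24-2, had 4.46 in WT replicate 1, at chr8:84207931-84208131. Each of the last 3 rests on a single library.

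Of the imprinted noncoding genes on the list, Peg13, Kcnq1ot1 and Mirg had a region, whereas H19, Meg3, Rian, Airn and Snhg14 had none. Peg13, in an intron of Trappc9, had a region at chr15:72810203-72810676 with folds of 4.1 in WT replicate 2 and 4.41 and 5.84 in miR-187, and another 6.67-fold peak at chr15:72809887-72810166 in WT replicate 1 alone. These 2 regions lie next to each other, so with a wider merge Peg13 would count as found in all 4 lists. Kcnq1ot1, the antisense RNA of the Kcnq1 domain, likewise had separate regions in WT replicate 2 (4.05) and in miR-187 replicate 1 (4.32). Mirg had 4.74 in WT replicate 2. Of the polymerase III genes on the list, Rn7sk, whose RNA restrains transcription elongation, had 5.92 and 6.82 in WT, and Rny1 had 4.76 in WT replicate 1 and 6.02 in miR-187 replicate 1, whereas Rmrp, Rpph1 and Rny3 had no region. Epb41l4aos had a peak in miR-187 replicate 1 alone (5.13).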

How the data were processed

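The 2 WT and 2 miR-187 ATAC-seq libraries from P0 mouse heart were analysed from 1 deposited narrowPeak list each. The submitters' processing notes name Bowtie2 2.2.6, SAMtools 1.10, deepTools 3.3.2, MACS2 2.2.7.1, HOMER 4.11, FastQC, ChIPseeker and DiffBind on mm10; filters on reads and duplicates are not given in the sources used here. The lists as deposited by the authors hold a score (10 times −log10 q, cut to a whole number), the fold enrichment, a ratio with no unit, and −log10 p and −log10 q; the largest q was 0.0463 to 0.0498. The summit offset was deposited as well and was not used. No read counts were used, so depth was judged from the background solved from fold and p (all peaks within 0.0005 of a whole summit height; the solver and the region rule were tested on simulated data).

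Peaks on chromosomes X and Y and unplaced scaffolds were left out of the comparisons. Genes, biotypes, promoters and miRNAs came from RefSeq GRCm38.p6, the assembly of mm10. The strongest peak by −log10 q stood for a list in a region. Named regions were up to 15 in all 4 lists and 5 in both WT or both miR-187 lists only, by their lowest percentile rank, up to 15 at genes of other classes than lncRNA in at least 2 lists, and those at a list of 65 symbols of textbook genes. The members and lists were chosen with earlier results of these data known. Group values were compared by 2-sided exact permutation over 6 assignments. Alternatives were −log10 q of at least 5, equal numbers of peaks, a 500 bp limit, a 50% cover of the region, each library left out and the replicate block. Same-numbered libraries were not paired by the labels, and their deviations had a correlation of -0.0252. Python 3.11.15, numpy 2.4.6, pandas 2.3.3 and scipy 1.17.1 were used.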

Additional observations from a re-analysis of the deposited data

Results flagged for a closer look

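On chromosomes X and Y, outside all comparisons above, 7 of 295 regions (2.37%) met the same rule for noncoding gene ends. They had a peak in 2 and 6 cases in WT replicates 1 and 2 and in 1 and 0 cases in miR-187 replicates 1 and 2. They are given only as signal in data that were not compared. Their share was lower than on the autosomes, where 1033 of 20624 regions met the rule.

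The rank of noncoding gene ends relative to protein-coding gene ends pointed in opposite directions in the groups. The median rank of noncoding minus protein-coding end regions was -7.19 and -10.1 in the WT lists and 1.17 and 5.94 in the miR-187 lists. The difference of the group means, -12.2, had p = 0.333 in a 2-sided exact permutation test, the smallest possible with n = 2 and 2. In lists trimmed to the same length the difference was 0.915 and the groups overlapped, and with −log10 q of at least 5 it was -29.5. This comparison was chosen after the ranks were seen, and its cause was not tested.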

How the results depend on the processing

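With 2 libraries a group, the exact permutation test could not reach 0.05. Of 61 alternatives over 7 results, 47 kept the direction or stayed within 1.5 times the count. Both numbers include the replicate block, which could not change a direction. In lists trimmed to 1461 peaks each, the difference in regions with a peak turned to -4.5, that in share to -0.31 and that in rank relative to protein-coding ends to 0.915, and the counts of regions seen only in WT or only in miR-187 came to 7 and 6; fewer peaks entered by construction. With −log10 q of at least 5, 34 regions were WT-only. Leaving out each library gave WT-only counts of 98 to 427 and miR-187-only counts of 1 to 127, fewer lists being required. For these alternatives the shares of all regions were not counted. With a library left out, the difference in detection relative to protein-coding ends ranged from -5.91 to 4.25, turning to 4.25 without WT replicate 2 and to 2.79 without miR-187 replicate 2, and the share of classes other than lncRNA ranged from -1.11 (without miR-187 replicate 2) to 4.5; the cause was not tested. In the trimmed lists these 2 differences were -11.2 and 7.45, and with −log10 q of at least 5 they were -3.79 and 8.4. In the replicate block the group differences were 339 regions (exact sign-flip p = 0.5), 0.613, -2.23, -8.23 and 1.69 points. These equal the main values by construction, since pairing leaves a difference of means as it is, so they say nothing about robustness. Low summits (median 7 to 14 reads) limit what a missing peak shows.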
